A study of Capra hircus with 9 samples.

Results

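The miRNA family of miR-148 and miR-152 was followed across 3 stages of the goat mammary gland cycle. All mature miRNAs whose names start with chi-miR-148a, chi-miR-148b or chi-miR-152 were taken, whatever their level. This gave 4 of the 1359 miRNAs in the deposited count table, chi-miR-148a-3p, chi-miR-148a-5p, chi-miR-148b-3p and chi-miR-148b-5p, and chi-miR-152 was not analysed here. The tissue was whole mammary gland of healthy Laoshan dairy goats in the third parity, taken after slaughter at late lactation (LL, 240 days postpartum), in the dry period (DP, 300 days postpartum) and at late gestation (LG, 140 days after mating). Each stage had 3 goats with 1 small RNA library each, and no goat was sampled at more than 1 stage. No treatment or genotype separated the groups, and no group was an untreated control. The gland holds epithelial, stromal, vascular and immune cells, so fewer cells of a type and less RNA per cell cannot be told apart in these values.

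A miRNA is cut from a hairpin precursor whose arms, 5p and 3p, can each give a mature miRNA of nearly the same length. One arm usually enters the Argonaute complex and guides it to messenger RNAs through its seed, the bases near the 5′ end, while the other is mostly degraded. The 3p arms of miR-148a, miR-148b and miR-152 share their seed and are the guide arms of the family. miR-148a-3p is known as one of the most abundant miRNAs of milk and of the lactating gland, and targets described for the family include the DNA methyltransferase DNMT1 and the cholesterol transporter ABCA1.

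Both hairpins had a single locus in the reference annotation of the build the authors used, ARS1.2. MIR148A lies on chromosome 4 from 50269709 to 50269793 (85 bp), inside the long non-coding RNA gene LOC108635844 (50218216 to 50309527). Its nearest protein-coding neighbours, NPVF and NFE2L3, were 697632 bp and 164236 bp away. MIR148B lies on chromosome 5 from 25473985 to 25474093 (109 bp), inside the protein-coding gene COPZ1 (25462825 to 25482759), which encodes a subunit of the coatomer coat of transport vesicles. No other annotated miRNA gene lay within 1068494 bp of MIR148A or within 744230 bp of MIR148B. The hairpins of miR-148a and miR-148b therefore lie on separate chromosomes, the arms of a hairpin share its locus, and no member had counts equal to those of another listed miRNA.

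The counts of a library summed to between 13672653 and 34378995. Levels are given as CPM, the count scaled to the same total in every library (by library size), unless said otherwise, and the TMM factors that scaled the libraries for the tests lay between 0.745 and 1.28, below 1 in all LL libraries and above 1 in all LG libraries. A miRNA was called when edgeR's adjusted p was under 0.05 and the absolute log2 fold change above 1. The test covered 696 miRNAs that reached 0.5 CPM in 3 or more libraries, all 4 members among them. Over these, the median log2 fold change was 0.12 for DP vs. LL, 0.18 for DP vs. LG and 0.17 for LL vs. LG with TMM. By library size only these medians were 0.49, −0.02 and −0.42, so changes of the members are also given relative to the median of their comparison. DP replicate 3 had the highest summed level of the muscle and fibroblast marker miRNAs and the lowest of the epithelial ones among all libraries, and values without it are given where they bear on a result.

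chi-miR-148a-3p, the guide arm, was the most abundant miRNA in every LL and LG library and lost that place in DP. It had 10165847, 7969497 and 13063619 counts in the LL libraries, which were 59.4%, 48.4% and 53.1% of all counts. In the DP libraries it had 1480168, 2148514 and 1977071 counts, or 10.8%, 9.18% and 8.81%. In LG it had 11057074, 9500960 and 13544214 counts, or 43.5%, 44.6% and 39.4%. The stages did not overlap, with every LL library above every LG library and every LG library far above every DP library. The share was 53.6% ± 5.51 in LL, 9.61% ± 1.07 in DP and 42.5% ± 2.74 in LG (SD, n = 3 each), and chi-miR-148a-3p ranked 2, 3 and 4 among the miRNAs of the DP libraries. The 95% Wilson intervals of these shares were at most 0.0483 percentage points wide, so counting error was small beside the differences between goats.

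**Figure D1:**
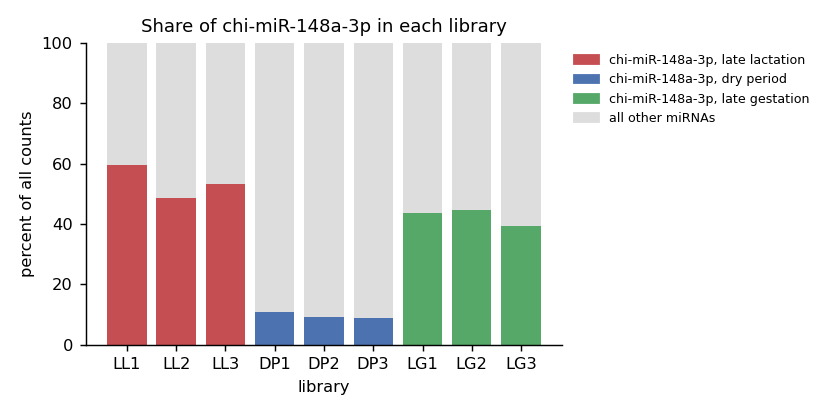
Percent of all counts held by chi-miR-148a-3p (coloured) and by all other miRNAs (grey), 1 bar per library, for late lactation (LL), the dry period (DP) and late gestation (LG). The coloured part is 48.4% to 59.4% in LL, 8.81% to 10.8% in DP and 39.4% to 44.6% in LG.

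The share differed between the stages (exact permutation test of the between-stage sum of squares on the log2 share, p = 0.00357, the smallest the 280 splits can give; adjusted p = 0.00893 over 10 shares and ratios). It was 5.59 times as large in LL as in DP and 4.43 times as large in LG as in DP, as ratios of geometric means. LL was 1.26 times LG. Each pair of stages alone could reach no p below 0.1 in an exact two-sided permutation test of 3 against 3 libraries, and each of these 3 pairs gave that value.

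A share cannot rise above 100%, so the same counts were also set against all other miRNAs. Per count of any other miRNA there were 1.18 ± 0.265 counts of chi-miR-148a-3p in LL, 0.106 ± 0.0132 in DP and 0.741 ± 0.0811 in LG (SD, n = 3 each). On this scale LL was 10.9 times DP and LG 6.97 times DP. All miRNAs other than chi-miR-148a-3p together held 46.4% of the counts in LL, 90.4% in DP and 57.5% in LG. A miRNA whose level relative to these others was the same in LL and DP would thus show a 1.95-fold higher CPM by library size in DP, and 1.57-fold against LG.

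The 4 members together held 54.0% ± 5.51 of the counts in LL, 9.79% ± 1.06 in DP and 42.9% ± 2.73 in LG (SD, n = 3 each). chi-miR-148a-3p made up 99.3% of the family's counts in LL, 98.2% in DP and 99.1% in LG, on average. The other 3 members were therefore a minor part of the family's counts in every stage, and their own pattern does not show in the family total.

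In the edgeR fit, chi-miR-148a-3p fell from LL to DP (log2 fold change −2.87, SE 0.22, adjusted p = 2.49e-05, 95% interval −3.35 to −2.39). Against LG, the DP level gave −1.93 (SE 0.21, adjusted p = 0.000159, 95% interval −2.40 to −1.47). Relative to the median of all tested miRNAs these changes were −2.99 and −2.11, and by library size only, relative to its own median, −2.97 and −2.12. Both calls held under every alternative run, with values from −3.47 to −2.48 for DP vs. LL and from −2.80 to −1.93 for DP vs. LG, and with each library left out in turn. Without DP replicate 3 they were −2.88 and −2.12.

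Between LL and LG, the log2 fold change for chi-miR-148a-3p was 0.94 (SE 0.21, adjusted p = 0.012, 95% interval 0.48 to 1.39), which is under the fold limit, so it was not called. By library size only it was 0.34 (adjusted p = 0.23). The adjusted p was also above 0.05 with no filter (0.12), with a minimum of 10 counts per library (0.074) and by library size without chi-miR-148a-3p (0.0522), an alternative chosen after the data were seen. The same held without LL replicate 1 (0.172) or 3 (0.101) and without LG replicate 1 (0.102), 2 (0.109) or 3 (0.175). Relative to the median of all tested miRNAs it was 0.77 with TMM and 0.76 by library size only.

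chi-miR-148a-5p, the passenger arm of the same hairpin, followed the guide arm at a level about 3 orders of magnitude lower. It had 333, 283 and 303 CPM in the LL libraries, 66.3, 87.9 and 84.9 CPM in DP and 322, 304 and 298 CPM in LG. All DP libraries lay below all others, while LL and LG overlapped and had nearly the same mean, 306 ± 25.6 and 308 ± 12.6 CPM (SD, n = 3 each). The DP mean was 79.7 ± 11.7 CPM (SD, n = 3). The counts behind these levels were 4648 to 7453 in LL, 907 to 2056 in DP and 6482 to 10248 in LG, and the miRNA ranked between 82 and 103 in LL and LG libraries and between 151 and 183 in DP libraries.

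The log2 fold change of chi-miR-148a-5p was −2.30 for DP vs. LL (SE 0.27, adjusted p = 0.000292, 95% interval −2.89 to −1.71) and −1.71 for DP vs. LG (SE 0.26, adjusted p = 0.000818, 95% interval −2.29 to −1.13). Relative to the medians these were −2.42 and −1.89, and both calls held under every alternative and without each library. For LL vs. LG it was 0.59 (SE 0.26, adjusted p = 0.141) and −0.01 by library size only, so its sign depended on the scaling and it was not called. Relative to the median of the comparison it was 0.42 with TMM and 0.41 by library size only. The share of all counts differed between the 3 stages (exact permutation test, p = 0.0321, adjusted p = 0.0402).

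chi-miR-148b-3p, the guide arm of the paralog hairpin, also fell in DP, but by less than chi-miR-148a-3p. Its libraries had 3519, 3626 and 2960 CPM in LL, 1579.5, 1491 and 1957 CPM in DP and 3656, 3621 and 3706 CPM in LG. No DP library reached the lowest of the others, and LL and LG overlapped. The means were 3368 ± 358 CPM in LL, 1676 ± 247 CPM in DP and 3661 ± 42.8 CPM in LG (SD, n = 3 each), and the ranks 22 to 28 in LL, 46 to 53 in DP and 24 to 28 in LG. The 3 LG goats were closer to each other for this miRNA than the goats of LL or DP were.

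The log2 fold change of chi-miR-148b-3p for DP vs. LL was −1.37 (SE 0.20, adjusted p = 0.000932, 95% interval −1.82 to −0.92), or −1.49 relative to the median. It was called under every alternative, down to −1.01 by library size only (adjusted p = 0.00418). For DP vs. LG it was −0.90 (SE 0.20, adjusted p = 0.00581, 95% interval −1.35 to −0.46), or −1.08 relative to the median, under the fold limit and so not called. The call was made with TMM under another filter, with none (−1.27, adjusted p = 0.00261) or with a minimum of 10 counts per library (−1.26, adjusted p = 0.00231). It was also made with DESeq2 (−1.11) and its size factors in edgeR (−1.11), upper quartile scaling (−1.05), library size only (−1.13), library size without chi-miR-148a-3p (−1.78) and TMM without chi-miR-148a-3p (−1.21), and without DP replicate 3 (−1.27), LG replicate 2 (−1.03) or 3 (−1.10), or LL replicate 1 (−1.02), 2 (−1.03) or 3 (−1.03). The call was not made with limma-voom (−0.91), the replicate block (−0.91) or only the 2 stages in the fit (−0.90). Nor was it made without DP replicate 1 (−0.98) or 2 (−0.99) or without LG replicate 1 (−0.99). The adjusted p was under 0.05 in all of these fits, with and without the call. For LL vs. LG the value was 0.47 (SE 0.20, adjusted p = 0.137), or 0.30 relative to the median. By library size only it was −0.12, or 0.30 relative to the median at that scaling.

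chi-miR-148b-5p, the passenger arm of the paralog, was the least abundant member and did not differ detectably between stages. Its libraries had 26.5, 31.5 and 22.7 CPM in LL, 28.7, 22.7 and 35.8 CPM in DP and 31.8, 28.7 and 35.2 CPM in LG. All 3 stages overlapped. The means were 26.9 ± 4.45, 29.1 ± 6.55 and 31.9 ± 3.26 CPM (SD, n = 3 each), from 393 to 1210 counts per library, and the 95% Wilson intervals reached up to 9.90% of a value to each side.

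In edgeR its log2 fold change was −0.25 for DP vs. LL (SE 0.26, adjusted p = 0.495, 95% interval −0.82 to 0.32), 0.08 for DP vs. LG (SE 0.26, adjusted p = 0.832, 95% interval −0.48 to 0.65) and 0.33 for LL vs. LG (SE 0.26, adjusted p = 0.409, 95% interval −0.23 to 0.90). Relative to the medians these values were −0.37, −0.10 and 0.17. The interval for DP vs. LL leaves out a fall as large as that of chi-miR-148a-3p, chi-miR-148a-5p or chi-miR-148b-3p from LL to DP. The sign changed with the scaling, to 0.11 for DP vs. LL by library size only, or −0.37 relative to the median at that scaling. With libraries scaled by their size without chi-miR-148a-3p, an alternative chosen after the data were seen, it was −0.86 for DP vs. LL (adjusted p = 0.0356) and −0.79 for DP vs. LG (adjusted p = 0.0399), both under the fold limit, where the medians of all tested miRNAs were −0.48 and −0.67. Scaled in the same way to the counts of all miRNAs but chi-miR-148a-3p, it had 48.3 to 65.2 in LL, 24.9 to 39.2 in DP and 51.8 to 58.1 CPM in LG, with DP below both.

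**Figure D2:**
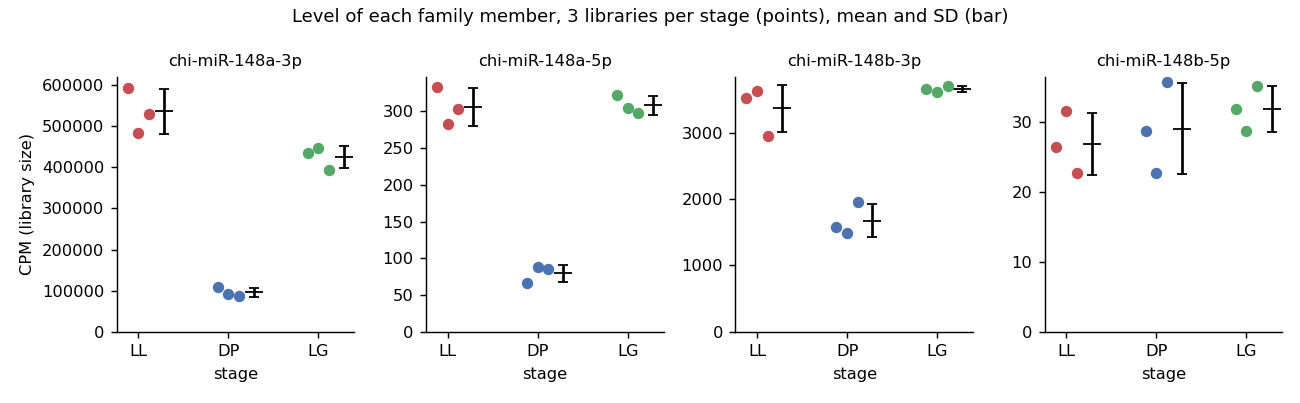
CPM by library size of the 4 members, 1 panel each with its own axis from 0, points for the 3 libraries of LL, DP and LG, and bars for the mean and SD. DP lies apart and lowest for chi-miR-148a-3p, chi-miR-148a-5p and chi-miR-148b-3p, whereas all stages overlap for chi-miR-148b-5p (22.7 to 35.8 CPM).

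Of the 4 members, 3 were called for DP vs. LL, all lower in DP, where 26.7% of all tested miRNAs were called and 11.6% were called lower in DP. For DP vs. LG, 2 members were called, both lower in DP, beside 31.5% called in either direction and 9.91% called lower. For LL vs. LG no member was called in edgeR, beside 12.8% of all tested, 8.91% higher and 3.88% lower in LL. At an unadjusted p under 0.05, chi-miR-148a-3p, chi-miR-148a-5p and chi-miR-148b-3p passed in that comparison, as 33% of all tested miRNAs did, and DESeq2 and limma-voom called none. The 3 comparisons share libraries, so their values are set side by side and not counted as separate evidence.

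The same was seen in whether libraries overlapped in CPM scaled by TMM. The same 3 members had all DP libraries below all LL libraries, as 20.3% of all tested miRNAs did (41.2% did not overlap in either direction), and below all LG libraries, as 17% did (44.7% in either direction). For LL vs. LG all 4 members lay higher in LL without overlap, but 48.4% of all tested miRNAs did not overlap either (17.4% lay lower in LL), and by library size only chi-miR-148a-3p alone of the members was without overlap, as 47% of all tested miRNAs were.

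**Figure D3:**
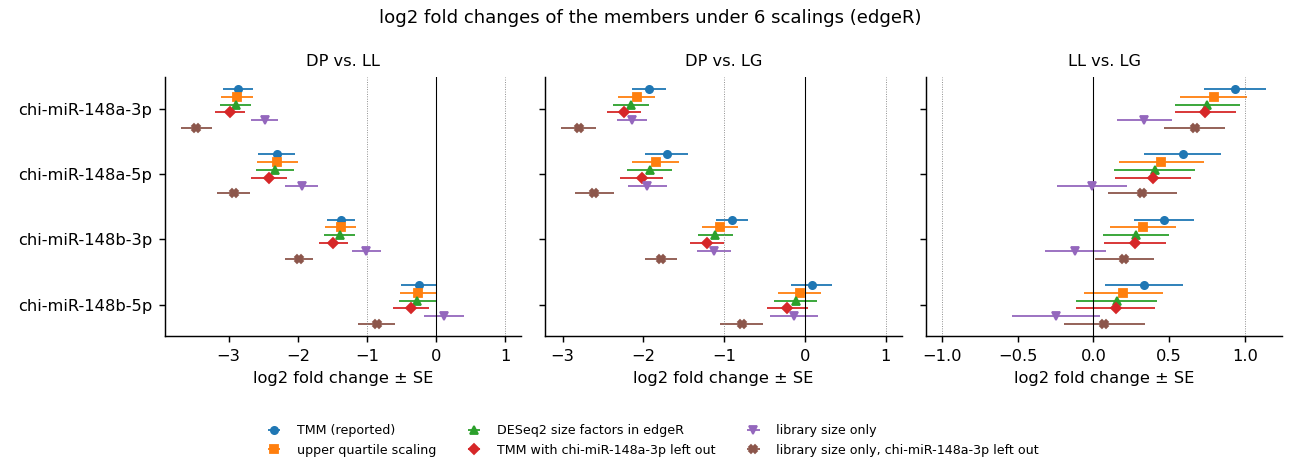
edgeR log2 fold changes (points) with SE (bars) of the 4 members in each comparison under 6 ways of scaling the libraries; dotted lines mark the fold limit of 1 on the log2 scale. For DP vs. LL and DP vs. LG the first 3 members stay below 0 under all 6, while chi-miR-148b-5p lies on both sides of 0 and LL vs. LG moves with the scaling (0.34 to 0.94 for chi-miR-148a-3p).

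Whether miR-148b followed miR-148a was read from the ratio of their counts within a library, which no scaling of libraries can change. There were 169, 134 and 179 counts of chi-miR-148a-3p per count of chi-miR-148b-3p in the LL libraries. In DP there were 68.5, 61.6 and 45.05, and in LG 119, 123 and 106. No library of a stage overlapped with one of another, in the order LL, LG, DP. The ratio was 161 ± 23.9 in LL, 58.4 ± 12.1 in DP and 116 ± 8.77 in LG (SD, n = 3 each) and differed between the stages (exact permutation test, p = 0.00357, the smallest possible; adjusted p = 0.00893).

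The guide arms therefore moved in one direction into DP but not by the same factor. The difference in the log2 ratio was −1.47 (SE 0.22) for DP vs. LL, −1.01 (SE 0.19) for DP vs. LG and 0.46 (SE 0.14) for LL vs. LG. Leaving out each library in turn kept these between −1.60 and −1.29, −1.14 and −0.83, and 0.37 and 0.59. The mature 3p sequences of both hairpins are known to be nearly identical, the number of mismatches allowed in counting is not given in the sources used here, and reads counted on the wrong paralog were not tested for.

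For the passenger arms, there were 12.6, 8.96 and 13.4 counts of chi-miR-148a-5p per count of chi-miR-148b-5p in LL, 2.31, 3.88 and 2.38 in DP and 10.1, 10.6 and 8.47 in LG. DP lay below both other stages, which overlapped. The means were 11.6 ± 2.35, 2.85 ± 0.888 and 9.74 ± 1.12 (SD, n = 3 each; exact permutation test, p = 0.0107, adjusted p = 0.0153), and the log2 differences −2.05 (SE 0.30) for DP vs. LL, −1.81 (SE 0.26) for DP vs. LG and 0.24 (SE 0.21) for LL vs. LG.

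**Figure D4:**
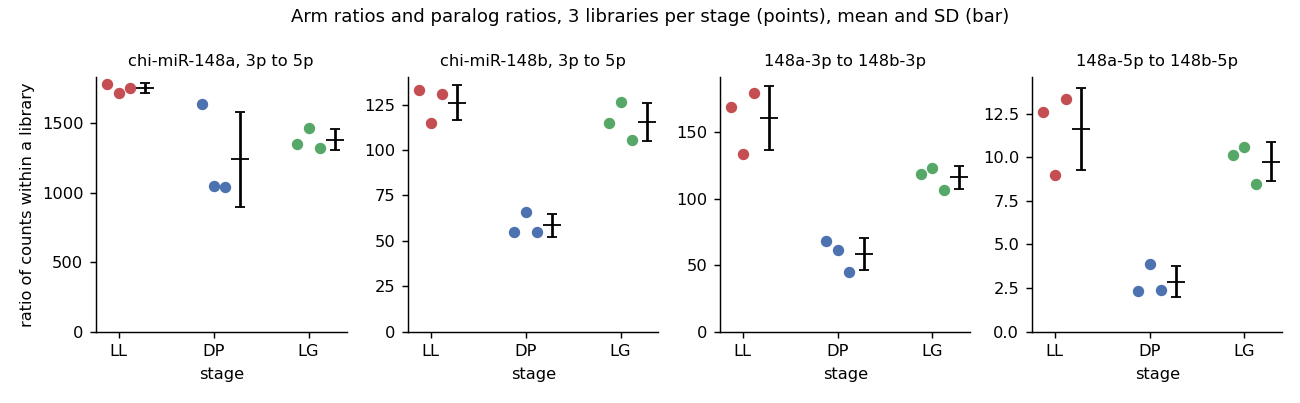
Ratios of counts within each library, 1 panel per ratio with its own axis from 0: 3p to 5p of chi-miR-148a and of chi-miR-148b, and chi-miR-148a to chi-miR-148b for each arm, with points for libraries and bars for the mean and SD. DP is lowest and apart in the chi-miR-148b arm ratio and in both paralog ratios, and DP replicate 1 (1632) stands above the other 2 DP libraries (1038 and 1045) in the chi-miR-148a arm ratio.

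The arm ratio of chi-miR-148a was extreme in all stages. There were 1783, 1715 and 1753 counts of 3p per count of 5p in LL, 1348, 1466 and 1322 in LG, and 1632, 1045 and 1038 in DP. LL and LG did not overlap. DP replicate 1 lay above all LG libraries, and the other 2 DP libraries lay below all LG libraries. The means were 1750 ± 34.1 in LL, 1238 ± 341 in DP and 1379 ± 76.6 in LG (SD, n = 3 each), and the exact permutation test over the 3 stages did not pass (p = 0.0893, adjusted p = 0.0992). It passed without DP replicate 1 (adjusted p = 0.00714). The log2 difference was −0.53 (SE 0.22) for DP vs. LL, −0.19 (SE 0.22) for DP vs. LG and 0.35 (SE 0.05) for LL vs. LG.

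The arm ratio of chi-miR-148b was an order of magnitude smaller and clearly lower in DP. It was 133, 115 and 131 in LL, 54.95, 65.8 and 54.7 in DP and 115, 126 and 105 in LG. All DP libraries lay below all others, and LL and LG overlapped. The means were 126 ± 9.78, 58.5 ± 6.33 and 115 ± 10.5 (SD, n = 3 each; exact permutation test, p = 0.0107, adjusted p = 0.0153), with log2 differences of −1.11 (SE 0.11) for DP vs. LL, −0.98 (SE 0.12) for DP vs. LG and 0.13 (SE 0.10) for LL vs. LG. Thus the 3p arm of miR-148b was lower in DP relative to its own 5p arm.

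Both arms were tested for 129 hairpins, chi-miR-148a and chi-miR-148b included, and 56 had more 3p than 5p. By the mean log2 ratio of 3p to 5p, chi-miR-148a was 2nd (10.48) and chi-miR-148b 14th (6.56). A change in arm ratio was common between these stages. The libraries did not overlap in 41.9% of hairpins for DP vs. LL, in 41.9% for DP vs. LG and in 27.1% for LL vs. LG, and in 7.75% no pair of stages overlapped. The median difference over all hairpins was −0.33 for DP vs. LL, with 22 of 129 at or below chi-miR-148b and 48 at or below chi-miR-148a, each counted with itself. For DP vs. LG it was −0.18, with 24 at or below chi-miR-148b. The fall of the chi-miR-148b ratio was therefore among the larger ones without being rare in size, since 31 hairpins, itself included, had a difference at least as large in either direction for DP vs. LL and 32 for DP vs. LG.

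**Figure D5:**
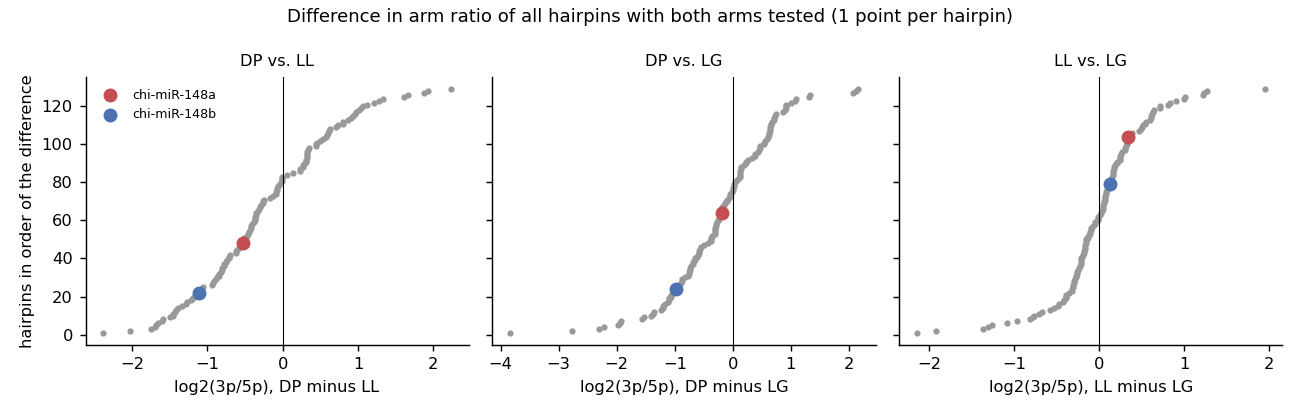
Differences between stages in the log2 ratio of 3p to 5p for the 129 hairpins with both arms tested, in order of the difference within each panel, with chi-miR-148a (red) and chi-miR-148b (blue) marked. chi-miR-148b lies in the lower part for DP vs. LL (−1.11) and DP vs. LG (−0.98), and chi-miR-148a lies nearer the middle (−0.53 and −0.19).

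Among 303 miRNAs whose mean level reached 10 CPM, the one most like chi-miR-148a-3p over the 9 libraries was chi-miR-148a-5p, by the root mean square difference of log2 CPM after each was centred on its mean (0.285, beside a median of 1.46 over all). chi-miR-148b-3p ranked 9th (0.643) and chi-miR-148b-5p ranked 78th (1.14). Of miRNAs outside the family, the 5 most like it were 1 predicted miRNA (0.505), chi-miR-363-3p (0.511), chi-miR-423-3p (0.539), chi-miR-20b (0.561) and chi-miR-378-3p (0.567). The same 5 were found by library size only and with chi-miR-148a-3p left out of TMM. With a limit of 100 CPM, chi-miR-423-3p and chi-miR-378-3p remained and were joined by chi-miR-200c, chi-miR-200b and chi-miR-429. The miRNAs that joined are epithelial markers, but chi-miR-183, chi-miR-182 and chi-miR-96 of the same marker list had positive values for DP vs. LL (1.18, 0.71 and 0.59).

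These 5 were chosen for a profile close to that of chi-miR-148a-3p in the same libraries, so a low level in DP was part of the choice and their values are given as a description. chi-miR-423-3p had 1102 to 1814 CPM in LL, 391 to 601 in DP and 1496 to 1796 in LG, with log2 fold changes of −1.74 for DP vs. LL and −1.46 for DP vs. LG. chi-miR-378-3p had 2213 to 3365 CPM in LL, 806 to 1106 in DP and 3461 to 5699 in LG, with −1.99 and −2.15. The values of the other 3 ranged from −2.15 to −1.60 for DP vs. LL and from −2.37 to −1.13 for DP vs. LG. Against LL none of the 5 had as large a negative log2 fold change as chi-miR-148a-3p (−2.87), whereas against LG the predicted miRNA (−2.37) and chi-miR-378-3p (−2.15) had larger ones (−1.93 for chi-miR-148a-3p).

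Lists of miRNAs that share a known role with the family were set beside it, with 15.1% of all tested miRNAs called higher in DP than in LL and 21.6% higher in DP than in LG. Of 16 tested miRNAs known to be abundant in milk, 5 were called higher and 4 lower in DP than in LL, with a median log2 fold change of 0.66, and 6 were higher and 4 lower than in LG, with a median of 0.74. With TMM the 3 most abundant of them were higher in DP, chi-miR-99a-5p by 1.78 (adjusted p = 0.00185), chi-miR-26a-5p by 1.11 (adjusted p = 0.026) and chi-miR-21-5p by 1.02 (adjusted p = 0.0257) on the log2 scale against LL. With chi-miR-148a-3p left out of TMM, 3 of the list were called higher and 4 lower in DP than in LL, beside 11.6% and 13.6% of all tested miRNAs. The list together held 147338 to 192794 CPM in LL, 404040 to 495446 in DP and 262030 to 292743 in LG, the order opposite to that of chi-miR-148a-3p, and CPM are shares of one total. By library size only, 9 of the list were called higher and 1 lower in DP than in LL, beside 23.7% and 8.48% of all tested miRNAs, and 4 higher and 5 lower than in LG, beside 16.7% and 12.2%. By library size without chi-miR-148a-3p, 1 was higher and 4 lower than in LL, beside 4.6% and 22.7% of all tested, and 1 higher and 5 lower than in LG, beside 6.75% and 27.9%. The medians of the list were then 0.07 for DP vs. LL and −0.14 for DP vs. LG, or 0.55 and 0.53 relative to all tested miRNAs. The shares of the list called lower at that scaling were thus near those of all tested miRNAs. Relative to all tested miRNAs, the median of the list was 0.54 higher for DP vs. LL both with TMM and by library size only. The fall of chi-miR-148a-3p was thus not shared by most of the milk list.

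The list of 13 tested miRNAs known to act on cholesterol or fatty acid genes had 2 higher and 5 lower in DP than in LL (median −0.82), beside 15.1% and 11.6% of all tested miRNAs with TMM. For DP vs. LG 3 were higher and 1 lower in DP (median 0.13), beside 21.6% and 9.91%, and for LL vs. LG 3 were higher in LL (median 0.66), beside 8.91%. The most abundant listed miRNA, chi-miR-27b-3p, was not called in any comparison (0.76, 0.76 and 0.00). chi-miR-103-3p was lower in DP than in LL (−1.57, adjusted p = 0.000386) and higher in LL than in LG (1.42, adjusted p = 0.00208). With TMM, chi-miR-378-3p alone of the list was called lower in DP in both comparisons, as chi-miR-148a-3p was. By library size only, 5 of the list were called higher and 5 lower in DP than in LL, beside 23.7% and 8.48% of all tested miRNAs. By library size without chi-miR-148a-3p, none was higher and 6 were lower than in LL, beside 4.6% and 22.7% of all tested, and none was higher and 3 were lower than in LG (median −0.74), beside 6.75% and 27.9%, so the balance of the calls for DP vs. LG turned with the scaling.

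Of 6 tested miRNAs known to act on DNA methyltransferase genes, as the family does, none was called for DP vs. LL with TMM in edgeR, though 2 had an adjusted p under 0.05 below the fold limit and 3 were called higher in DP by library size only, where 23.7% of all tested miRNAs were. The miR-29 family members, chi-miR-29a-3p, chi-miR-29b-3p and chi-miR-29c-3p, were higher in DP than in LG by 2.24 (adjusted p = 0.000134), 2.59 (adjusted p = 0.000197) and 2.02 (adjusted p = 0.00101) and higher in LL than in LG by 1.51 (adjusted p = 0.00266), 1.66 (adjusted p = 0.00404) and 2.38 (adjusted p = 0.00169). chi-miR-143-3p, the most abundant of the list, and chi-miR-101-3p were called in no comparison (−0.43, 0.14 and 0.58, and 0.03, 0.43 and 0.40). In DP vs. LG the miR-29 members and chi-miR-148a-3p therefore changed in opposite directions.

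Some marker miRNAs of cell types were called between the stages too. Of 8 tested epithelial marker miRNAs, 5 were called lower and 1 higher in DP than in LL with TMM, beside 11.6% and 15.1% of all tested miRNAs. For DP vs. LG 3 were called lower in DP, beside 9.91%. By library size only none was lower than in LL and 5 were lower than in LG, where 8.48% and 12.2% of all tested miRNAs were called lower. Relative to the median of all tested miRNAs, the median of the list for DP vs. LL was −1.18 with TMM and −1.14 by library size only. The 5 were the miR-200 family members, such as chi-miR-200b (−1.11, adjusted p = 0.00444), chi-miR-200c (−1.23, adjusted p = 0.0035) and chi-miR-200a (−1.02, adjusted p = 0.0035) for DP vs. LL. The other 3 had positive values in that comparison, 1.18 for chi-miR-183 (adjusted p = 0.0441), the one called higher, 0.71 for chi-miR-182 (adjusted p = 0.176) and 0.59 for chi-miR-96 (adjusted p = 0.341), and 0.89, 0.95 and 0.27 for DP vs. LG, where none of the 3 was called. The summed CPM of the list was 26586 to 39582 in LL, 14375 to 26084 in DP and 41532 to 48712 in LG, without overlap. No listed marker in the table was at 0 in all libraries of a stage.

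Of the 5 fibroblast and smooth muscle markers, 3 were called higher in DP than in LL and than in LG, with a summed level of 62094 to 94622 CPM in LL, 55366 to 156002 in DP and 68284 to 83725 in LG. Without DP replicate 3 the DP sums were 55366 and 62939 CPM, which lay below all of LG and overlapped with LL. Of the 4 immune markers, 1 was higher in DP than in LL and 4 than in LG (672 to 946 CPM in LL, 1271 to 2347 in DP, 522 to 757 in LG). Of the 5 skeletal muscle markers, 1 was higher in DP than in LL and 2 than in LG (574 to 701, 996 to 3522 and 519 to 630 CPM). Without DP replicate 3 the DP sums were 1131 and 996 CPM, still above all of LL and LG. The lists of red blood cells (272 to 482, 141 to 1189.9 and 98.3 to 212 CPM) and endothelium (11808 to 17295, 22172 to 29744 and 17496 to 20996 CPM) had 1 of 2 markers each higher in DP than in LG and none called for DP vs. LL. With 5 other scalings the number higher in DP than in LG was 2 or 3 for fibroblasts and smooth muscle, 2 or 3 for immune cells, 0 or 2 for skeletal muscle, 0 or 1 for red blood cells and 0 for endothelium, while the share of all tested miRNAs called higher ran from 6.75% to 18.7%.

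Per count of the epithelial marker list, there were 21.3, 12.2 and 19.96 counts of chi-miR-148a-3p in LL, 4.15, 4.94 and 6.13 in DP and 9.81, 10.7 and 8.09 in LG. The stages again did not overlap, with means of 17.8 ± 4.88, 5.07 ± 0.997 and 9.55 ± 1.35 (SD, n = 3 each). chi-miR-148a-5p had 0.00714 to 0.0119 counts per epithelial count in LL, 0.00254 to 0.00591 in DP and 0.00612 to 0.00733 in LG, with DP below both. chi-miR-148b-3p had 0.0916 to 0.126 in LL, 0.0606 to 0.136 in DP and 0.0761 to 0.0872 in LG, and here DP overlapped with both. Without DP replicate 3 the other DP libraries (0.0606 and 0.0802) lay below all of LL and still overlapped with LG. chi-miR-148b-5p went the other way, with 0.000797 to 0.000948 in LL, 0.0011 to 0.00249 in DP and 0.000691 to 0.000723 in LG. Here DP lay above both without overlap, although the CPM of chi-miR-148b-5p overlapped between all stages. The summed CPM of the marker list was itself lowest in DP, so a miRNA with the same CPM in every stage would be highest there too. How many of all tested miRNAs lay apart on this scale was not counted. Beside the epithelial markers DP was thus lowest for both arms of miR-148a, overlapped for chi-miR-148b-3p, with LL through DP replicate 3 alone, and was highest for chi-miR-148b-5p. The part of a change in cell types in any of these values was not tested.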

How the data were processed

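Small RNA of mammary gland tissue was sequenced by the authors in 9 libraries, 3 goats at each of LL, DP and LG, grouped by the sample labels. RNA was extracted with TRIzol and gel-selected. After adapter trimming, the authors mapped reads with miRDeep2 to goat assembly ARS1.2, counted them on miRBase and predicted mature miRNAs, and deposited these counts without normalization. The submitters' processing notes list FastQC 0.11.9, cutadapt 4.2 and Bowtie 1.1.1. The LL replicate 3 column, in which the authors' counting left 2 predicted miRNAs at values that are not whole, was taken as deposited estimated counts and rounded.

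Counts were fitted with edgeR 4.0.16 (glmQLFit, glmQLFTest; R 4.3.3), TMM scaling and stage as the only term, in 1 fit of all 9 libraries, for miRNAs that reached 0.5 CPM in 3 or more libraries. P-values were adjusted by Benjamini-Hochberg over all tested miRNAs, and a call needed both an adjusted p under 0.05 and a log2 fold change beyond 1 in either direction. SE is the absolute log2 fold change divided by the square root of F. Shares and ratios were tested on the log2 scale with exact permutation tests, adjusted over 10 quantities (3 stages) or 30 tests (pairs of stages, two-sided). Hairpin ratios used a pseudocount of 0.5. Wilson intervals cover counting error only, and reads carried no molecular identifiers and may be PCR copies. Intervals of edgeR log2 fold changes were built from the SE of the fit, which includes the spread between goats. Scripts were tested on simulated data. DESeq2 1.42.0, limma-voom (limma 3.58.1), other scalings and filters, 2-stage fits, the replicate number as a block and fits without each library in turn served as alternatives.

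Replicate numbers were shared between stages, but the goats differed and same-numbered libraries had correlations of deviations from −0.10 to 0.21, so they were not paired. The miRNAs named are the 4 members, the 5 most like chi-miR-148a-3p (at least 10 CPM, prior count 2) and up to 3 of the most abundant in each list; chi-miR-29b-3p, chi-miR-29c-3p, chi-miR-183, chi-miR-182 and chi-miR-96 were added after their values were seen, and chi-miR-429 is named only among the most alike at a limit of 100 CPM. Lists overlap: chi-miR-27b-3p, chi-miR-143-3p, chi-miR-144-3p, chi-miR-223-3p, chi-miR-141, chi-miR-200a and chi-miR-200c each stand in more than 1. The members and lists were chosen with earlier results of these data known. Loci are those of RefSeq's ARS1.2 annotation. Mature sequences and transcripts were not used here.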

Additional observations from a re-analysis of the deposited data

How the results depend on the processing

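With the replicate number as a block, only 36 splits were left and the smallest p was 0.0278, so the 3-stage tests of shares and ratios missed an adjusted p of 0.05: 0.0694 for the chi-miR-148a-3p share, the family share, the odds and the 3p paralog ratio, 0.0794 for the chi-miR-148b-3p share, the chi-miR-148b arm ratio and the 5p paralog ratio, and 0.139 for the chi-miR-148a-5p share. The block changed no edgeR call of a member. The chi-miR-148a arm ratio passed without DP replicate 1 (adjusted p from 0.00714 to 0.187 as each library was left out). The sign of chi-miR-148b-5p for DP vs. LG turned to −0.11 (DESeq2, and its size factors in edgeR), −0.066 (upper quartile), −0.13 (library size only), −0.22 (TMM without chi-miR-148a-3p), −0.26 (a minimum of 10 counts per library), −0.27 (no filter) and −0.79 (library size without chi-miR-148a-3p), and lay between −0.34 and 0.079 with a library left out. By library size only, the DP vs. LL sign of chi-miR-148b-5p also turned (0.11), as did LL vs. LG for chi-miR-148a-5p (−0.0095), chi-miR-148b-3p (−0.12) and chi-miR-148b-5p (−0.25). None of these was called, and the cause was not tested. Relative to the median of all tested miRNAs, the 3 LL vs. LG values by library size only were 0.41, 0.30 and 0.18. With TMM they were 0.42, 0.30 and 0.17. For chi-miR-148b-5p, DP vs. LL was −0.37 relative to the median at both scalings. The number of members called was 3 for DP vs. LL under all alternatives run, 2 or 3 for DP vs. LG, and 0 for LL vs. LG. With 3 goats a stage and depths over 13672653 counts, the spread between goats and the scaling, not counting, limit the chi-miR-148a-3p values; for chi-miR-148b-5p counting adds up to 9.90%.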
